A study of Mus musculus with 24 samples.

Results

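The RNA of light polysomes was compared with the ribosome-free RNA of the same gradients in vehicle-treated NIH/3T3 cells, a mouse fibroblast line of embryonic origin. The comparison used 6 of the 24 libraries of the series: 3 light polysome libraries and 3 ribosome-free libraries, taken by the gradient fraction numbers in the headers of the deposited count table and paired by the tag in those headers. The light pool held monosomes and short polysomes, and the ribosome-free pool held free ribonucleoprotein particles with the small and large ribosomal subunits. All 6 libraries came from cells that received PBS for 24 h at 37 °C in medium with 10% bovine calf serum. The other libraries of the series were heavy polysomes (more than 5 ribosomes), total RNA, and the same pools from cells given halofuginone, a drug that inhibits the glutamyl-prolyl-tRNA synthetase. Halofuginone was given for 24 h at 100 nM according to the sample labels, while the headers of its libraries in pair 1 state 50 nM, a difference not settled here. Light and ribosome-free pools of halofuginone-treated cells enter only as a second set of libraries for the same contrast.

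In a sucrose gradient, an mRNA sediments according to how many ribosomes sit on it. An mRNA held back from initiation stays near the top with free subunits, an mRNA that has begun translation carries a monosome or a few ribosomes, and a long or efficiently initiated mRNA moves on into heavy polysomes. Iron-responsive elements of ferritin mRNAs and terminal oligopyrimidine (TOP) tracts of ribosomal protein mRNAs are textbook features that hold mRNAs out of polysomes, through iron regulatory proteins and through mTOR signalling. RNAs that cytosolic ribosomes do not translate, such as many noncoding RNAs and mitochondrial transcripts, are read here as shares of each pool.

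The light libraries held 20567868, 17372319 and 14531578 counts in pairs 1, 2 and 3, and the ribosome-free libraries 17364135, 10300517 and 11051179. Pair 1 was cut at other places than pairs 2 and 3: its light pool joined fractions 3 to 6 and its ribosome-free pool fractions 1 to 2, against fractions 6 to 13 and 1 to 5 in pairs 2 and 3. Pair differences of all 13103 genes tested ranked alike in pairs 2 and 3 (Spearman 0.82) and less so between pair 1 and pair 2 (0.36) or pair 3 (0.23), which is a description across genes. All 5 fibroblast markers (Col1a1, Col1a2, Pdgfrb, Thy1, Vim) averaged at least 5 CPM, a gene's counts scaled to the library size, in both pools, and 0 of 16 epithelial, leukocyte and endothelial markers did. Mitochondrially encoded RNA made up 2.41%, 4.98% and 2.53% of counts in light polysomes, against 8.69%, 34.9% and 30.8% in ribosome-free pools. All values below are TMM-scaled CPM, shares of a pool rather than amounts per cell, and RNA from fewer cells cannot be told apart from less RNA per cell.

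Of 13103 genes tested, 690 (5.27%) were higher and 246 (1.88%) were lower in light polysomes than in ribosome-free RNA (edgeR's quasi-likelihood test with the pair as a block, Benjamini-Hochberg adjusted p under 0.05), 7.14% in all. The median absolute log2 fold change was 1.55 among the genes that rose and 1.71 among those that fell, and the smallest was 1.02 in both directions. Every one of the 690 rises had the same sign in all 3 pairs, as had 242 of the 246 falls, and the pools did not overlap for 651 and 200 of them. The calls were made on these same pairs, so such agreement is no separate support. Over all 13103 genes tested, 3520 were above 0 and 2954 below 0 in all 3 pairs. How many of all genes tested had pools that did not overlap is not given here, so the 651 and 200 have no background beside them. Protein-coding genes rose more often than they fell (669 against 149 of 11363 tested, median log2 fold change 0.04), while long noncoding RNAs (7 against 30 of 749, median -0.56) and annotated pseudogenes (2 against 29 of 505, median -0.55) fell more often. The p-values rest on the spread between these 3 pairs, which the series describes as biological replicates. edgeR moderates the spread of each gene with a spread pooled over genes. A fit on 2 pairs holds less spread of the gene itself, so its very small adjusted p-values lean on the pooled spread. A fit without the pair block called 212 of 12594 genes (1.68%), 171 higher (1.36%) and 41 lower (0.326%), and DESeq2 called 1925 (14.7%), 1100 higher (8.4%) and 825 lower (6.3%). Pairs 2 and 3 alone gave 6681 of 12421 genes (53.8%), and without pair 2 or pair 3 the count was 162 or 846. Of the 936 calls, 930 were kept without pair 1, 212 without the block, 151 without pair 2 and 640 without pair 3.

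**Figure D1:**
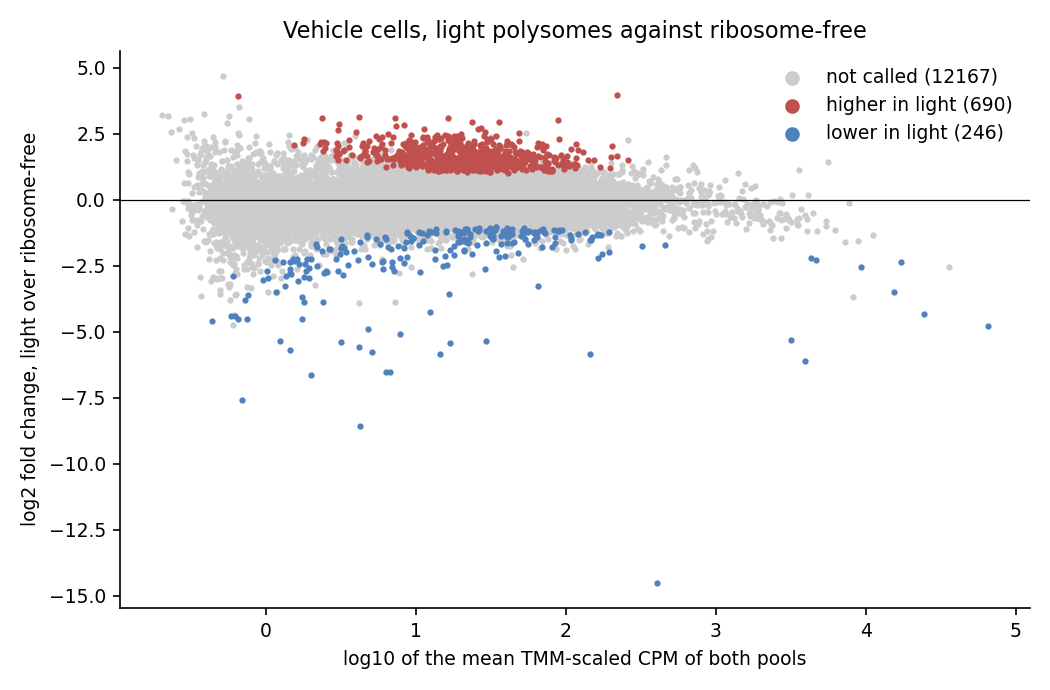
Each point is 1 of 13103 genes, with the log10 mean TMM-scaled CPM of both pools on the x axis and edgeR's log2 fold change of light polysomes over ribosome-free RNA on the y axis. The 690 genes higher in light polysomes sit at middle levels, while the 246 lower genes include abundant RNAs at the right; the lowest point, mt-Atp6, had counts of 0, 1 and 0 in the light libraries, so its fitted fold depends on the prior count.

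The largest rises among named genes averaging at least 10 CPM in the higher pool included a receptor, a kinase and a DNA-modifying enzyme. Plxnd1 (chr6:115954811-115995005, GRCm38), which encodes plexin D1, a receptor for semaphorins, stood at 64.2, 66.6 and 60.7 CPM in light polysomes, against 7.70, 8.91 and 8.37 CPM in ribosome-free RNA. The groups were far apart, with little spread inside either, and the log2 fold change was 2.94 ± 0.24 (SE, n = 3 pairs, edgeR adjusted p = 0.0236). Uhmk1, a serine/threonine kinase with an RNA recognition motif, had 42.8, 55.6 and 43.2 CPM in light polysomes, against 6.51, 8.03 and 7.07 CPM in ribosome-free RNA, a log2 fold change of 2.71 ± 0.23 (SE). Zfp646, a zinc finger protein, had 25, 35.9 and 26.9 CPM in light polysomes, against 4.19, 4.01 and 2.17 CPM in ribosome-free RNA. Its log2 fold change of 3.09 ± 0.31 (SE) was matched by Urb1 (3.09 ± 0.38), a factor of large ribosomal subunit assembly, and followed by Tet3 (2.84 ± 0.31), which oxidises 5-methylcytosine in DNA. Gfod1 rose by 2.80 ± 0.28 and Pcdhgc3, a clustered protocadherin that shares its constant exons with neighbouring genes and whose counts are therefore less certain, by 2.96 ± 0.25. Each of these 7 genes had the smallest adjusted p of the comparison (0.0236), and each kept its call without any single pair. Pcdhgc3 alone of them missed the threshold without the pair block (edgeR adjusted p = 0.0997).

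The largest fitted rise belonged to Mir6236 (chr9:110281287-110281409, GRCm38), annotated as a microRNA gene. It reached 71.1, 226 and 931 CPM in light polysomes, against 3.44, 60.5 and 20.4 CPM in ribosome-free RNA. Light was higher in each pair, but by unequal amounts (4.18, 1.89 and 5.48 on the log2 scale), and the highest ribosome-free library came close to the lowest light one. The fitted log2 fold change was 3.96 ± 0.78 (SE, edgeR adjusted p = 0.0402), and without the pair block the adjusted p was 0.138. Mature microRNAs are shorter than the fragments this library kit is made for, so the counts are not read as a mature microRNA. Which RNA gave these reads was not tested.

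**Figure D2:**
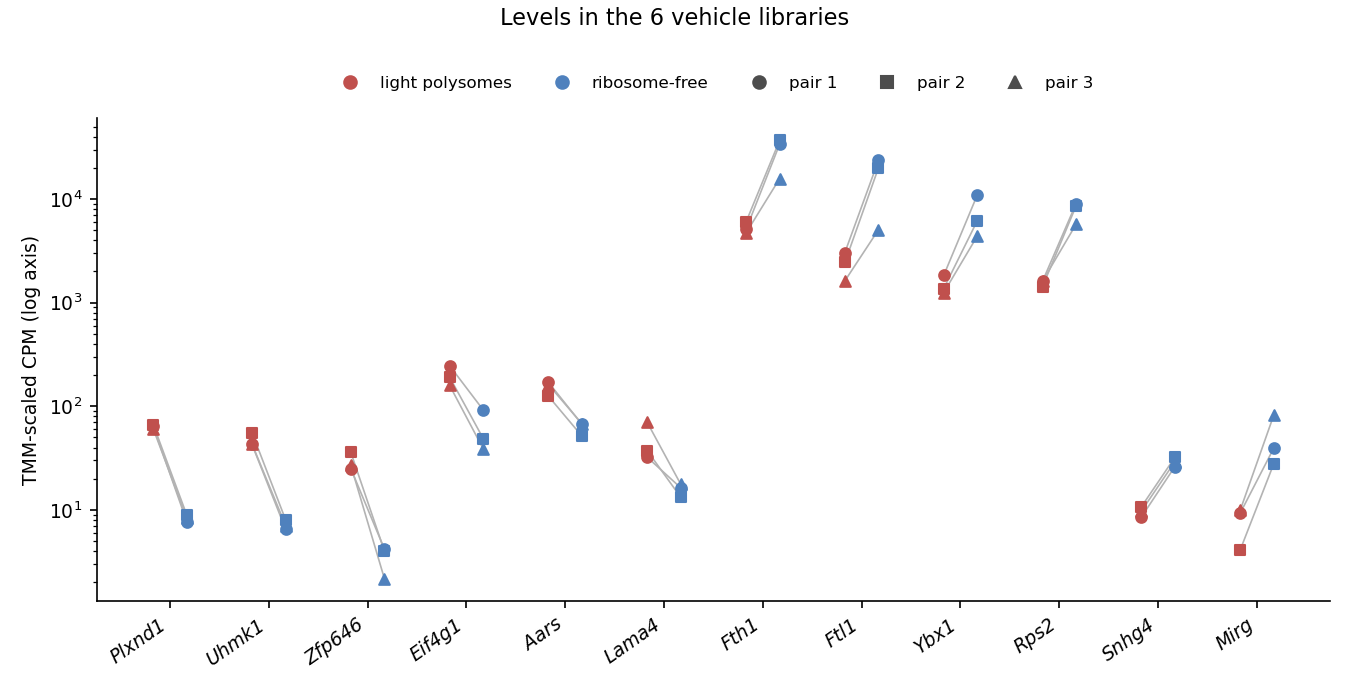
TMM-scaled CPM on a log axis for 12 genes in the 6 vehicle libraries, with light polysomes (red) left of ribosome-free RNA (blue), grey lines joining the libraries of a pair and marker shapes giving the pair. Plxnd1, Uhmk1, Zfp646, Eif4g1, Aars and Lama4 are higher in light polysomes in all 3 pairs, and Fth1, Ftl1, Ybx1, Rps2, Snhg4 and Mirg are lower.

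Both ferritin mRNAs were concentrated in ribosome-free RNA. Fth1 (chr19:9980598-9985098), the ferritin heavy chain that oxidises and stores iron, had 5097, 6009 and 4706 CPM in light polysomes, against 33848, 36818 and 15742 CPM in ribosome-free RNA. Ftl1 (chr7:45457944-45459884), the light chain of the same storage shell, had 3043, 2444 and 1622 CPM in light polysomes, against 23577, 20002 and 5052 CPM in ribosome-free RNA. For both, every light library lay below every ribosome-free one, and pair 3 showed the smallest difference. The log2 fold changes were -2.37 ± 0.51 for Fth1 (SE, edgeR adjusted p = 0.0481) and -2.55 ± 0.52 for Ftl1 (adjusted p = 0.0426). Neither passed without the pair block (adjusted p = 0.0553 and 0.0700) or without pair 2 (0.606 and 0.520), and Fth1 also missed without pair 3 (0.0998).

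Iron-responsive elements are hairpins whose 6-base loop starts with CAGTG in DNA letters, below which sits a bulged C. Transcripts of 21623 genes in GENCODE M21 (GRCm38) were searched for a C, 5 bases of any kind, CAGTG and 1 base of any kind, followed by 5 bases that pair with the 5 before the loop. Only the transcribed strand was read, and matches could overlap. A match lay in the 5′ UTR of 28 genes (0.129%) and in the 3′ UTR of 140 (0.647%). The sites of the iron-handling genes are printed because the loop stood both in mRNAs that fell and in mRNAs that did not pass. A match is a description of the letters, not of binding. The 6 loop bases are in capitals, and each window spans 30 bases.
Fth1 5′ UTR, chr19:9982732-9982761, plus strand: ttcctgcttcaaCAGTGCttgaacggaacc
Ftl1 5′ UTR, chr7:45459778-45459807, minus strand: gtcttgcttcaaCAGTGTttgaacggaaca
Slc40a1 5′ UTR, chr1:45925464-45925493, minus strand: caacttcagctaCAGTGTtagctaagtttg
Tfrc 3′ UTR, chr16:32631219-32631248, plus strand: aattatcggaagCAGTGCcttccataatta

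Of 7 tested mRNAs on the list of iron-responsive element carriers, 0 rose, 2 fell (the ferritins) and the median log2 fold change was -1.48, against -0.02 over all genes tested. The list median was near 0 in pair 1 (-0.08) and lower in pairs 2 and 3 (-1.72 and -1.64). Of the 7, 3 were above 0 in pair 1 and 0 in pairs 2 and 3. The iron exporter Slc40a1 was near the limit of detection, at 1.61, 0.652 and 0.618 CPM in light polysomes, against 1.57, 0.878 and 1.74 CPM in ribosome-free RNA (edgeR adjusted p = 0.502). Tfrc, the transferrin receptor, carries its elements in the 3′ UTR and had 32.1, 22.1 and 11.4 CPM in light polysomes, against 34, 89.3 and 55.1 CPM in ribosome-free RNA. Its difference was small in pair 1 (-0.08 on the log2 scale) and large in pairs 2 and 3 (-1.99 and -2.23), and it did not pass over the 3 pairs (adjusted p = 0.114) but did in pairs 2 and 3 alone (log2 fold change -2.15, adjusted p = 3.09e-34).

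Among all 23 tested genes with a 5′ UTR match, 1 rose (Bcorl1, log2 fold change 1.92) and 4 fell, the ferritins with Ftl1-ps1 and Eif2s1, against 5.27% and 1.88% of all genes tested. Ftl1-ps1 is an annotated copy of Ftl1, so reads of both could be split between them and its log2 fold change of -2.75 ± 0.26 (SE) is less certain. Of the 97 tested genes with a 3′ UTR match, 10 rose and 0 fell.

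mRNAs of the translation machinery gave few calls. Cytosolic ribosomal protein mRNAs, the classical TOP mRNAs, leaned towards ribosome-free RNA: 74 of 78 tested had a fold change below 0, against 6669 of all 13103. The median was -0.55, but 1 member fell and 0 rose, beside 1.88% and 5.27% of all genes tested. The fallen member was Rps2, a protein of the small subunit, with 1607, 1428 and 1607 CPM in light polysomes, against 9028, 8596 and 5709 CPM in ribosome-free RNA. Its pools were clearly apart (log2 fold change -2.30 ± 0.41, SE, edgeR adjusted p = 0.0353), although the call was lost without pair 2 (adjusted p = 0.463) and without pair 3 (0.0668). The lean of the family depended on the pair: all 78 members were lower in pair 1 (median difference -1.47), 60 in pair 2 (-0.30) and 42 in pair 3 (-0.05). Ribosomal protein genes have many processed pseudogenes, so single members are less certain. In pairs 2 and 3 alone, 10 members rose and 17 fell, against 26.9% of all genes tested in each direction.

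Of 17 translation factors with TOP mRNAs, 0 rose and 0 fell, with a median log2 fold change of -0.53, and members pointed both ways. Eif4b, which helps the helicase eIF4A unwind mRNA leaders, had 577, 691 and 670 CPM in light polysomes, against 151, 323 and 364 CPM in ribosome-free RNA, and did not pass (log2 fold change 1.30 ± 0.34, SE, edgeR adjusted p = 0.0727). Pabpc1, the cytoplasmic poly(A)-binding protein that represses its own mRNA, had 2054, 1250 and 979 CPM in light polysomes, against 2464, 6344 and 3134 CPM in ribosome-free RNA. Light was lower in each pair, but little so in pair 1 (-0.26, against -2.34 and -1.68 on the log2 scale), and the fold change of -1.44 ± 0.52 (SE) had an adjusted p of 0.141 with 3 pairs and 8.24e-18 without pair 1. Tpt1, the translationally controlled tumour protein, had a log2 fold change of -1.18 (adjusted p = 0.133). Eef1a1, which delivers aminoacyl-tRNA to the ribosome, stood at 7777, 7874 and 6458 CPM in light polysomes, against 7148, 9084 and 7675 CPM in ribosome-free RNA (log2 fold change -0.11, adjusted p = 0.885).

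Among 34 other initiation and termination factors, 1 rose and 1 fell, with a median log2 fold change of -0.15. Eif4g1, the scaffold of the cap-binding complex, had 246, 191 and 159 CPM in light polysomes, against 92.1, 48.8 and 38.8 CPM in ribosome-free RNA. The pools did not overlap and the log2 fold change was 1.81 ± 0.27 (SE, edgeR adjusted p = 0.0267). Eif2s1, the alpha subunit of eIF2 whose phosphorylation slows initiation, went the other way, with 68.2, 52.5 and 56.9 CPM in light polysomes, against 150, 113 and 126 CPM in ribosome-free RNA. Its difference was almost the same in each pair (-1.14, -1.10 and -1.14 on the log2 scale), and the log2 fold change was -1.13 ± 0.23 (SE, adjusted p = 0.0427). Both calls were lost without the pair block (adjusted p = 0.0785 for Eif4g1 and 0.100 for Eif2s1), without pair 2 and without pair 3. With library totals in place of TMM scaling, Eif2s1 was no longer called (adjusted p = 0.211).

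Ybx1, Taf1d and Peg3 also fell, and were chosen after their values were seen. Ybx1, a cold shock protein that coats mRNAs and represses its own translation, had 1829, 1365 and 1249 CPM in light polysomes, against 10939, 6172 and 4387 CPM in ribosome-free RNA. Every ribosome-free library was above every light one (log2 fold change -2.19 ± 0.40, SE, edgeR adjusted p = 0.0361), but the call did not hold without pair 2 (0.454), pair 3 (0.0935) or the block (0.0573). Taf1d, a subunit of the factor that recruits RNA polymerase I and also a host of small nucleolar RNAs (snoRNAs), had 34, 71.7 and 59.5 CPM in light polysomes, against 117, 387 and 310 CPM in ribosome-free RNA (log2 fold change -2.20 ± 0.28, SE, adjusted p = 0.0239). The call for Taf1d was lost without pair 2 (adjusted p = 0.0762) and without the block (0.0623). Peg3, a paternally expressed zinc finger gene with a long coding sequence, averaged 11.5 ± 2.27 CPM in light polysomes and 60.2 ± 36.1 CPM in ribosome-free RNA (SD, n = 3 each), a log2 fold change of -2.17 ± 0.38 (SE, adjusted p = 0.0334). Peg3 was lost under the same settings (0.0666 and 0.0609).

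Noncoding RNAs that host snoRNAs in their introns were lower in light polysomes in each pair. All 16 tested members were below 0 in each of the 3 pairs, with a median log2 fold change of -1.24 and pair medians of -1.64, -1.21 and -0.86. Of these, 6 fell and 0 rose: Snhg6, Snhg3, Dancr, Epb41l4aos, Snhg4 and Snhg15. Snhg4 was the most even, with 8.52, 10.7 and 9.72 CPM in light polysomes, against 26.2, 32.2 and 29.2 CPM in ribosome-free RNA, so that the pools were well separated (log2 fold change -1.60 ± 0.22, SE, edgeR adjusted p = 0.0246). Snhg6 had the largest change of the 6, with 29.9, 99.2 and 92.3 CPM in light polysomes, against 211, 335 and 274 CPM in ribosome-free RNA (log2 fold change -2.04 ± 0.35, SE, adjusted p = 0.0323). Gas5, a TOP RNA whose short reading frame is not known to make a stable protein, had 362, 614 and 654 CPM in light polysomes, against 1214, 1334 and 1098 CPM in ribosome-free RNA, and did not pass (log2 fold change -1.20 ± 0.35, SE, adjusted p = 0.0892). In pairs 2 and 3 alone, 14 of the 16 fell, in a setting where 26.9% of all genes tested did. All 6 calls were lost without pair 2, and 3 of them without the block.

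Nuclear and imprinted long noncoding RNAs were mixed: of 13 tested, 1 fell and 0 rose (median log2 fold change -1.04). The fallen one was Mirg, a maternally expressed RNA of the Dlk1-Dio3 region that hosts microRNAs, with 9.27, 4.09 and 9.89 CPM in light polysomes, against 39.4, 27.8 and 81.9 CPM in ribosome-free RNA. No light library reached the lowest ribosome-free one, the log2 fold change was -2.63 ± 0.29 (SE, edgeR adjusted p = 0.0236), and the call held without any single pair and without the block. Malat1, a nuclear speckle RNA, had 22.5, 18.8 and 10.2 CPM in light polysomes, against 16.0, 25.2 and 20.7 CPM in ribosome-free RNA, with overlapping pools and no call (log2 fold change -0.31, adjusted p = 0.595). The list median was above 0 in pair 1 (0.38) and below 0 in pairs 2 and 3 (-0.90 and -0.85). Replication-dependent histone mRNAs end in a stem-loop in place of a poly(A) tail, so a poly(A) kit captures them in part. Of 11 tested, 0 passed, with a median of -0.68, and Hist1h4i had the smallest p (log2 fold change -1.34, adjusted p = 0.0661).

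Transcripts of the mitochondrial genome, whose mRNAs mitochondrial ribosomes translate, made up the 8 largest falls among annotated genes averaging at least 10 CPM in the higher pool. Of 18 tested mitochondrially encoded RNAs, 14 fell and 0 rose, and of the 9 mRNAs among them 6 fell, with a median log2 fold change of -3.69. mt-Nd1, a core subunit of respiratory complex I, had 2657, 5386 and 3721 CPM in light polysomes, against 37805, 196859 and 147584 CPM in ribosome-free RNA. Ribosome-free values of pairs 2 and 3 were several times that of pair 1, and the log2 fold change was -4.79 ± 0.73 (SE, edgeR adjusted p = 0.0271). The mitochondrial ribosomal RNAs were lower still: mt-Rnr1 had 82.9, 165 and 77.3 CPM in light polysomes, against 3901, 10814 and 8417 CPM in ribosome-free RNA (log2 fold change -6.12 ± 0.51, SE, adjusted p = 0.0236). mt-Rnr2 followed with -5.31 ± 0.62, and the transfer RNA genes mt-Tm, mt-Tw, mt-Ti and mt-Tt, all with few reads in light polysomes, also fell. mt-Co1, the catalytic subunit of cytochrome oxidase, had a smaller difference that did not pass, at 4922, 11296 and 3145 CPM in light polysomes, against 11388, 27716 and 8980 CPM in ribosome-free RNA (log2 fold change -1.34 ± 0.43, SE, adjusted p = 0.110). mt-Atp6 had 0, 1 and 0 reads in light polysomes, against 4, 1039 and 21169 in ribosome-free RNA, and mt-Co2 0, 11 and 0 against 63, 208 and 58. The mouse nuclear genome holds near-identical copies of parts of the mitochondrial genome, so the counts of mt-Co1, mt-Atp6 and mt-Co2 are uncertain, and no fold is given for mt-Atp6 and mt-Co2. Without pair 2, mt-Nd1 was not called (adjusted p = 0.331), while mt-Rnr1 was (0.00168).

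Markers of other tissues were, like the mitochondrial share, higher in ribosome-free RNA than in light polysomes in pairs 2 and 3. Between these pairs the cardiac sum and the mitochondrial share did not move together: in both pools the former was higher in pair 3 and the latter in pair 2. The liver sum was, like the mitochondrial share, higher in pair 2 in both pools, though by little in light polysomes. A list of 11 cardiac muscle genes, written after their values were seen, summed to 13.5, 20.8 and 45.6 CPM of library totals in light polysomes, against 16.4, 57.2 and 144.0 CPM in ribosome-free RNA. Tnnt2 made up nearly all of the sum in pair 1, where Mb and Ryr2 had 0 counts in both pools. Of the 10 tested, 7 fell and 0 rose; Myh6, the cardiac alpha myosin heavy chain, had 0, 3.96 and 11.6 CPM in light polysomes, against 0.299, 20.8 and 59.6 CPM in ribosome-free RNA. A list of 6 liver genes summed to 0.146, 4.72 and 4.68 CPM in light polysomes, against 0.173, 22.1 and 19 CPM in ribosome-free RNA, and 1 of 5 tested fell, the albumin gene Alb. The part of such RNA in the falls above was not tested.

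**Figure D3:**
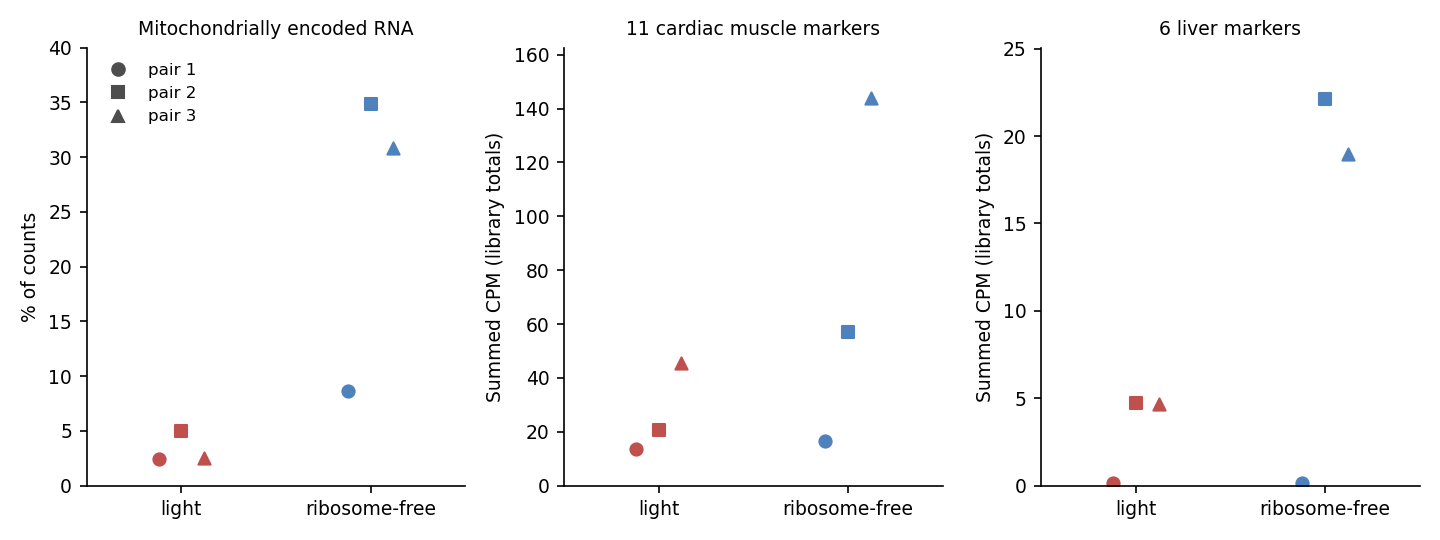
Share of counts from the mitochondrial genome (left, percent) and summed CPM of library totals of 11 cardiac muscle genes (middle) and 6 liver genes (right), with light polysomes left of ribosome-free RNA in each panel and 1 point per library. The ribosome-free libraries of pairs 2 and 3 are highest in all 3 panels, at 34.9% and 30.8% mitochondrial counts, and pair 1 has almost no liver marker in either pool.

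Nuclear-encoded mRNAs for mitochondrial proteins gave opposite pictures in pair 1 and in pairs 2 and 3. Of 76 subunits of oxidative phosphorylation, 0 passed over the 3 pairs and the median was 0.06. In pair 1, 70 of the 76 were lower in light polysomes (median difference -1.30), against 13 in pair 2 (0.45) and 6 in pair 3 (0.96), and in pairs 2 and 3 alone 52 of 75 rose and 3 fell, against 26.9% of all genes in each direction. Ndufa13, a complex I subunit, had the smallest p, with 302, 340 and 523 CPM in light polysomes, against 265, 122 and 115 CPM in ribosome-free RNA (log2 fold change 1.29 ± 0.44, SE, edgeR adjusted p = 0.130). It was hardly different in pair 1 and more than 1 log2 unit higher in the other pairs. Mitochondrial ribosomal proteins repeated this, with 77 of 77 lower in pair 1 (-1.20), 29 in pair 2 (0.21) and 20 in pair 3 (0.55), and 39 rises and 13 falls in pairs 2 and 3 alone, beside the same 26.9% each way. Over all pairs 1 fell: Mrpl1, a protein of the large mitochondrial ribosomal subunit, had 7.93, 13.4 and 12.9 CPM in light polysomes, against 20.0, 52.8 and 45.9 CPM in ribosome-free RNA (log2 fold change -1.71 ± 0.25, SE, adjusted p = 0.0254). In these lists, the fraction cut, the header set and the marker levels changed together between pair 1 and the others and cannot be told apart.

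The direction of mRNAs of secreted matrix proteins, a main product of fibroblasts, differed by pair. Of 21 collagen chains, 1 rose and 0 fell (median log2 fold change 0.12), and of 32 other matrix proteins 3 rose and 0 fell (0.04). Over all genes tested, 5.27% rose and 1.88% fell. Col16a1, a fibril-associated chain, had 76.6, 55.8 and 41.4 CPM in light polysomes, against 32.5, 27.7 and 12.6 CPM in ribosome-free RNA (log2 fold change 1.32 ± 0.25, SE, edgeR adjusted p = 0.0383). Lama4, a laminin alpha chain, had 32.2, 37.2 and 69.8 CPM in light polysomes, against 16.3, 13.2 and 17.6 CPM in ribosome-free RNA (log2 fold change 1.49 ± 0.28, SE, adjusted p = 0.0369), and its light values were above all ribosome-free ones. Lamb1, a laminin beta chain, and Emilin1, an elastic fibre glycoprotein, rose by 1.38 and 1.34. The chains of type I collagen did not pass: Col1a1 had 916, 231 and 892 CPM in light polysomes, against 377, 144 and 659 CPM in ribosome-free RNA (log2 fold change 0.80 ± 0.32, SE, adjusted p = 0.170), and Col1a2 had a log2 fold change of 0.12 (adjusted p = 0.847). In pair 1, 19 of 21 chains were higher in light polysomes, against 9 in pair 2 and 10 in pair 3. In pairs 2 and 3 alone 6 of 20 chains rose and 6 fell, beside 26.9% of all genes tested in each direction. The other matrix proteins had pair medians of 0.53, -0.11 and -0.12. All 4 matrix calls were lost without the block and without pair 2.

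Enzymes that fold, modify or process collagen had the highest list median (0.36), with 19 of 22 above 0 but 0 called. Over all genes tested, 6434 of 13103 were above 0. Adamts2, which removes procollagen amino-propeptides, had the smallest p of these enzymes (log2 fold change 1.14, edgeR adjusted p = 0.0664). Of 31 endoplasmic reticulum chaperones, 1 rose, Creld2, a stress-induced protein of that compartment (log2 fold change 1.18 ± 0.25, SE, adjusted p = 0.0456), and the median was -0.04. The call for Creld2 did not hold without the block (adjusted p = 0.253), pair 2 (0.361) or pair 3 (0.2).

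Stress mRNAs whose upstream reading frames limit translation were spread across both pools in vehicle cells. Of 14 tested, 1 rose and 0 fell (median 0.17). Atf4, the transcription factor of the integrated stress response, had 1325, 1822 and 1882 CPM in light polysomes, against 1418, 2329 and 2628 CPM in ribosome-free RNA. The pools overlapped and it did not pass (log2 fold change -0.31 ± 0.33, SE, edgeR adjusted p = 0.588). Ddit3, encoding the factor CHOP, had a log2 fold change of 0.33 (adjusted p = 0.570), and Ppp1r15a, which recruits the phosphatase of eIF2, 0.56 (adjusted p = 0.232). Both were higher in light polysomes in pairs 2 and 3 alone (0.65 and 0.77, adjusted p = 9.12e-05 and 4.02e-06). Mief1, a mitochondrial fission factor with a translated upstream frame, was the member that rose, with 44.7, 63.6 and 56.6 CPM in light polysomes, against 11.1, 28.0 and 29.2 CPM in ribosome-free RNA (log2 fold change 1.38 ± 0.29, SE, adjusted p = 0.0467). Without the block its adjusted p was 0.156 and without pair 2 it was 0.189.

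Of 22 cytosolic aminoacyl-tRNA synthetases, 2 rose and 0 fell, with a median log2 fold change of 0.14. Aars, the alanyl-tRNA synthetase, had 170, 125 and 162 CPM in light polysomes, against 66.8, 51.4 and 67.5 CPM in ribosome-free RNA, an even separation in each pair (log2 fold change 1.30 ± 0.23, SE, edgeR adjusted p = 0.0354). Lars, the leucyl enzyme, rose by 1.03 ± 0.22. Eprs, the glutamyl-prolyl enzyme that halofuginone inhibits, had 48, 50 and 76.6 CPM in light polysomes, against 24.6, 29.6 and 49.3 CPM in ribosome-free RNA. It was higher in light polysomes in each pair but missed the threshold (log2 fold change 0.79 ± 0.23, SE, adjusted p = 0.0889). Aars and Lars were not called without the block or without pair 2 or pair 3.

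In the remaining lists calls were few, and in 4 lists called members went both ways. Among 30 DNA replication genes, Pole, the catalytic subunit of a leading-strand polymerase, rose (log2 fold change 1.51 ± 0.28, SE), while its small partner Pole2 and the primase subunit Prim1 fell by 1.09 and 1.11. Among 14 chemokines and cytokines, Lif had 33.7, 35.2 and 8.54 CPM in light polysomes, against 8.38, 13.7 and 2.94 CPM in ribosome-free RNA, and rose by 1.64 ± 0.26. The related cytokine Il6 had 5.89, 7.18 and 2.75 CPM in light polysomes, against 12.9, 17.6 and 8.92 CPM in ribosome-free RNA, with a log2 fold change of -1.36 ± 0.27. Flna, a large actin cross-linker, was the sole call among 35 cytoskeleton genes and rose by 1.32, as did Eno2, a neuronal-type enolase, among 19 glycolytic enzymes (1.15) and Dio2, a thyroid hormone deiodinase and selenoprotein (1.66). Psmc6, an ATPase of the proteasome base, was the sole call among 31 proteasome subunits (log2 fold change -1.21), and Hnrnpdl that among 25 splicing factors with poison exons or detained introns (-1.22). Splicing factors had a median of -0.52, with pair medians of 0.02, -0.83 and -0.70. In pairs 2 and 3 alone 19 of the 25 fell and 0 rose, where 26.9% of all genes went each way. All calls in this paragraph were lost without the block and without pair 2, and those of Il6, Psmc6, Pole2, Prim1 and Hnrnpdl also with library totals. The glycolytic enzyme gene Aldoc and the plasma selenoprotein gene Gpx3 fell at levels of at most 5.22 CPM in any library. Cholesterol synthesis (22), immediate early (25), mitosis (25) and polyamine (10) genes had no called member, with medians of 0.06, 0.03, -0.22 and 0.25. In the immediate early, mitosis and polyamine lists, the smallest p belonged to Ier5, Bub1b and Oaz2, with adjusted p between 0.0574 and 0.0781.

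**Figure D4:**
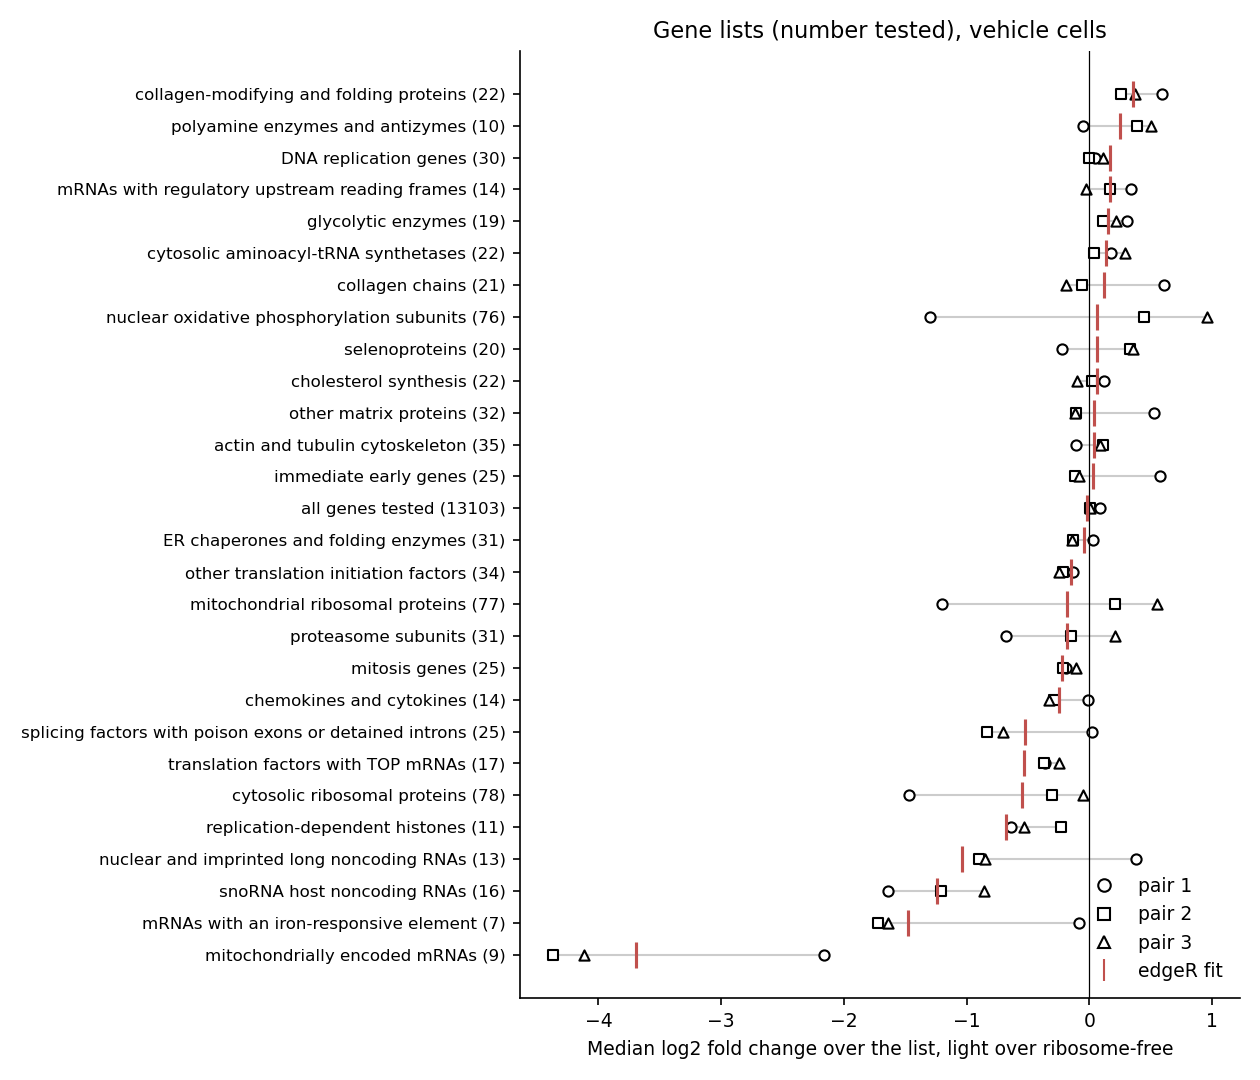
Median log2 fold change of light polysomes over ribosome-free RNA for each gene list, with the number of tested members in brackets, as the edgeR fit (red bar) and in each pair (open symbols). Mitochondrially encoded mRNAs lie lowest at -3.69 and snoRNA hosts are below 0 in each pair, while oxidative phosphorylation subunits lie at -1.30 in pair 1 and at 0.45 and 0.96 in pairs 2 and 3.

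Genes that rose had longer coding sequences than the others. The median coding length was 3206 nucleotides in genes that rose, 1026 in genes that fell and 1353 in genes not called, taking the longest complete coding sequence of each gene in GENCODE M21. Among 528 genes with more than 4800 coding nucleotides, 26.1% rose and 0.758% fell, and among 1938 genes of 2400 to 4800 nucleotides 17.3% rose and 0.206% fell. In the 1227 genes of 300 to 600 nucleotides, 0.978% rose and 1.63% fell, while in pairs 2 and 3 alone 38.5% of the class rose and 17% fell. Base composition followed the same split, with a median GC content of the coding sequence of 56.8% in genes that rose, 44.7% in genes that fell and 52.5% in the rest. The 1039 genes with at most 44% GC had a median log2 fold change of -0.61, with 0.481% rises and 6.06% falls, against 0.33, 10.6% and 0.312% in the 1281 genes above 60%.

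Length and GC content did not weigh alike in each pair. Across 11338 genes, the pair difference ranked with coding length at a Spearman rho of 0.59 in pair 1, 0.09 in pair 2 and -0.00 in pair 3, and with GC content at 0.11, 0.44 and 0.43. Genes of 300 to 600 coding nucleotides had a median difference of -0.77 in pair 1 and of 0.17 and 0.25 in pairs 2 and 3. Genes above 4800 nucleotides were above 0 in each pair (0.80, 0.53 and 0.46). These are descriptions across genes, which are not independent replicates, and library fragmentation, gradient cuts and depth are shared by all genes of a library. In pairs 2 and 3 alone, the medians of the classes up to 300 and of 300 to 600 nucleotides were 0.08 and 0.22, against -0.32 and -0.10 with all pairs, so their sign rested on pair 1.

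**Figure D5:**
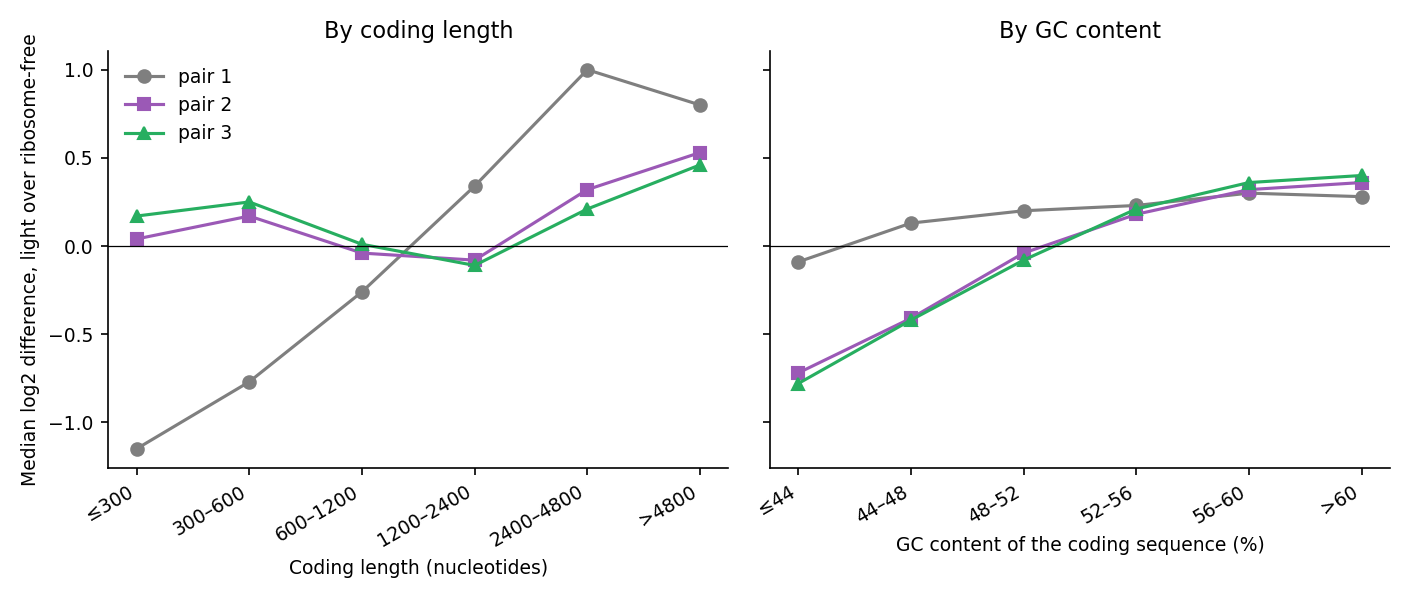
Median log2 difference of light polysomes over ribosome-free RNA in each pair, by coding length in nucleotides (left) and by GC content of the coding sequence in percent (right). Pair 1 climbs with length, with -0.77 at 300 to 600 nucleotides and 1.00 at 2400 to 4800, while pairs 2 and 3 climb with GC content, with -0.72 and -0.78 at the lowest class.

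The same contrast in halofuginone-treated cells, which shares no library with the vehicle comparison, called 490 of 12901 genes (3.8%), 342 higher (2.65%) and 148 lower (1.15%) in light polysomes. Of the 690 vehicle rises, 686 had the same sign with halofuginone and 297 were also called, which was 43% of the vehicle rises and 87.4% of the halofuginone rises tested in both. Of 243 vehicle falls tested there, 242 had the same sign and 90 were called, 37% of the vehicle falls and 63.4% of the halofuginone falls. The share of all genes tested with the same sign in both contrasts is not given here. The halofuginone pairs were cut at the same fractions as the vehicle pairs, so the contrasts share this part of the design. Plxnd1 had a log2 fold change of 2.41 with halofuginone and 2.94 in vehicle, and Ftl1 -2.51 with halofuginone and -2.55 in vehicle. Lama4 had 0.11 with halofuginone and 1.49 in vehicle (adjusted p of the difference = 1.0). A test of the difference itself, halofuginone minus vehicle, called 0 of 13504 genes by edgeR, with 71 at an unadjusted p under 0.05, and DESeq2 also called 0. In the halofuginone pairs, rho with coding length was 0.59, 0.06 and 0.03, again highest in pair 1, while rho with GC content was 0.14, 0.35 and 0.14, so that pair 3 was like pair 1 and not like pair 2.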

How the data were processed

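Poly(A) RNA of gradient pools from NIH/3T3 cells was sequenced with a stranded kit, per the labels' protocols. The authors deposited 1 table of whole-number counts per gene symbol (49568 symbols, 24 libraries in 8 groups of 3). The submitters' processing notes name Trimmomatic 0.36, STAR 2.5.2b, Subread 1.5.0p3, featureCounts and the build GRCm38.p5. Columns were assigned by the pool and tag in their headers, and pair 1 has other fraction cuts.

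Counts were tested with edgeR 4.0.16 in R 4.3.3 (filterByExpr, TMM scaling, quasi-likelihood test, the pair as a block, Benjamini-Hochberg adjustment, threshold 0.05), so adjusted p-values are edgeR's unless DESeq2 (1.42.0) is named. Differences within a pair are on the log2(CPM + 0.5) scale, which understates changes of low genes. Deviations of libraries from their group means correlated within each vehicle pair (0.491, 0.664 and 0.53). Between pairs the values were negative (-0.388 to -0.0921), which follows in part because deviations within a group sum to 0. With halofuginone the values were 0.517, 0.488 and 0.165 within pairs and -0.453 to 0.132 between pairs. The tag was taken to pair the libraries. Replicates differed by more than sampling noise. The fit was tested on simulated data with 12851 genes: it recovered 88 of 99 genes changed 4-fold and 14 of 99 changed 2-fold, with 5 false calls.

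Of the symbols, 47139 matched 1 gene of GENCODE M21, and 11338 tested genes had a complete coding sequence. Members, gene lists and tests were chosen with earlier results of these data known. Named genes were 16 fixed genes, the 8 largest called changes each way at 10 CPM or more in the higher pool with 1 sign in all pairs, and per list the largest called rise and fall, or else the smallest p; predicted genes and pseudogenes were left out of the ranking. Others, among them Ftl1-ps1, Tfrc, Slc40a1, Ybx1, Taf1d, Peg3, Alb, Myh6, Bcorl1 and further called list members, were chosen after their values were seen. Alternatives were no block, other scaling, other filters, DESeq2 and leaving out each pair. Counts carry no molecular identifiers, and low counts limit precision. Some results are not reported here.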

Additional observations from a re-analysis of the deposited data

How the results depend on the processing

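Dropping the pairing (no replicate block) left 212 calls in vehicle, against 936 with it, and 16 with halofuginone, against 490. DESeq2 gave 1925 in vehicle and 1107 with halofuginone, and testing all genes with any count 1915 and 1083, with 5 for the difference between treatments. Scaling by library totals gave 3681 and 2170; it moved the median of all vehicle genes to 0.65 on the log2 scale and the share of higher calls to 96.4%, against 73.7% with TMM scaling and 57.1% by DESeq2. Leaving out 1 pair gave 162 to 6681 calls in vehicle, the lowest without pair 2 and the highest without pair 1, and 4 to 468 with halofuginone. All 690 rises and 240 of 246 falls stayed called without pair 1, against 112 and 39 without pair 2, 517 and 123 without pair 3, 171 and 41 without the block, and 690 and 118 with library totals. Signs turned for 2 uncalled genes: Col1a2 without pair 1 (log2 fold change -0.13, adjusted p = 0.554; range over the pairs left out -0.13 to 0.29) and Malat1 without pair 3 (0.05, adjusted p = 0.973; range -0.71 to 0.05, with an adjusted p of 0.000326 without pair 1). The cause of these changes was not tested. Medians of 6 of 27 lists moved by more than the spread of their pairs without pair 1, of 3 with no filter, and of at most 2 under any other setting run. For library totals, these list and sign counts were made after the shift in the median of all genes was taken out. Without that step values did depend on the scaling: Atf4, for example, had a log2 fold change of 0.36 with library totals, against -0.31 with TMM scaling. With 3 pairs, changes of 2-fold were mostly missed on simulated data.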

Other observations

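The cardiac muscle and liver genes were also measured in the libraries outside the comparison, as sums of CPM of library totals. Heavy polysomes of vehicle cells held 3.69, 19.8 and 69.6 CPM of the 11 cardiac genes in pairs 1, 2 and 3, and the 3 total RNA libraries of vehicle cells, whose tags do not all match the gradient pairs, held 3.8, 4.18 and 4.0 CPM. Of the 6 liver genes, heavy polysomes held 0.0889, 6.62 and 8.75 CPM and total RNA 1.82, 0.216 and 0.514 CPM. With halofuginone, light polysomes held 36.2, 35.5 and 52.1 CPM of the cardiac genes, against 42.1, 55.7 and 155.0 CPM in ribosome-free RNA, and 0, 6.58 and 5.3 CPM of the liver genes, against 0.458, 19.5 and 21.9 CPM. In vehicle, each gradient library of pairs 2 and 3 held more of the liver genes than any of the 3 total RNA libraries. Where these transcripts came from was not tested.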
